A study of Caenorhabditis elegans with 32 samples.

Results

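The muscle experiment purified ribosomes of the strain WBM1339 by a FLAG tag and sequenced the messages bound to them, beside the total RNA of the whole-worm lysate. The comparison described here is that of the ribosome-bound fraction, called TRAP (translating ribosome affinity purification), with total RNA in worms fed the empty vector bacteria (EV), the control for RNAi. It uses 4 TRAP and 4 total RNA libraries of the 16 muscle strain libraries in the table and of 32 samples in the series, chosen by their labels and not by any measured value. All 8 libraries share the strain and the EV food, on which synchronized L1 larvae were placed after their parents had grown on OP50, and the labels name them biological replicates 1 to 4 of each fraction. The age of these worms at collection is not stated here. For its germline TRAP the paper collected adults at the end of reproduction. The strain is given by its name alone: the promoter that drives the tag and the ribosomal protein that carries it are not given in the sources used here. How many worms were pooled per library is not stated either, so that p-values measure the spread between these samples. Because TRAP is labelled as muscle and total RNA comes from every tissue, a ratio between them holds both where a message is made and how heavily ribosomes load it, and these cannot be told apart. In bulk samples, fewer cells of a type and less RNA per cell cannot be told apart either.

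Body wall muscle of C. elegans moves the worm by contracting obliquely striated sarcomeres, in which thick filaments of myosin and paramyosin slide along thin filaments of actin, tropomyosin and troponin. Dense bodies and M-lines, built on integrin, anchor the filaments to the basement membrane. Acetylcholine and GABA receptors on the muscle arms set the contraction through voltage-gated calcium channels and the calcium store of the sarcoplasmic reticulum. The pharynx, the feeding organ, has muscle of its own with separate myosin and troponin genes.

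Total counts were 34971225 to 49782576 in TRAP and 37400849 to 48432613 in total RNA. Of 46748 genes, 8767 had 10 or more counts in all 8 libraries and were tested, and they held 99.5 to 99.7% of TRAP counts and 98.4 to 98.5% of total RNA counts. The lowest count over the libraries lay between 10 and 14 for 96 tested genes, with a median log2 ratio of 0.64, and between 5 and 9 for 67 genes just outside. Levels are CPM (counts scaled to a common library total) after TMM scaling, which sets the bulk of genes equal between libraries. A ratio is the log2 of TRAP over total RNA with its standard error from edgeR, so that 1 is a doubling, and a gene is called where edgeR's quasi-likelihood test gives it p under 0.05 after Benjamini-Hochberg adjustment. In TRAP, 20 genes took 31.4 to 35.6% of the counts, against 9.71 to 10.4% in total RNA, and TMM factors were 0.53 to 0.66 in TRAP and 1.66 to 1.70 in total RNA. Scaled by library size alone, the median ratio of tested genes fell by 1.49 on the log2 scale. Ratios between 0 and about 1.5 are therefore above the bulk of genes and not above the share of the library, and 15.6% of calls were higher with that scaling against 53.0% with TMM.

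With TMM, 2642 of 8767 genes were higher in TRAP (30.1%) and 2346 were lower (26.8%), 56.9% in either direction. A call with a change of at least 2-fold was made for 2003 genes above (22.8%) and 563 below (6.42%). The 95% point of all ratios was 4.00 and the 99% point 6.09, whereas the 5% point was -1.1 and the 1% point -1.60. The lower end is limited by the count minimum, which leaves out genes with few or no counts in a TRAP library. With every gene that had a count tested, 2365 were higher and 3593 lower. The extremes were 7.83 ± 0.34 for F23D12.7 and -2.88 ± 0.41 for swsn-3.

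**Figure D1:**
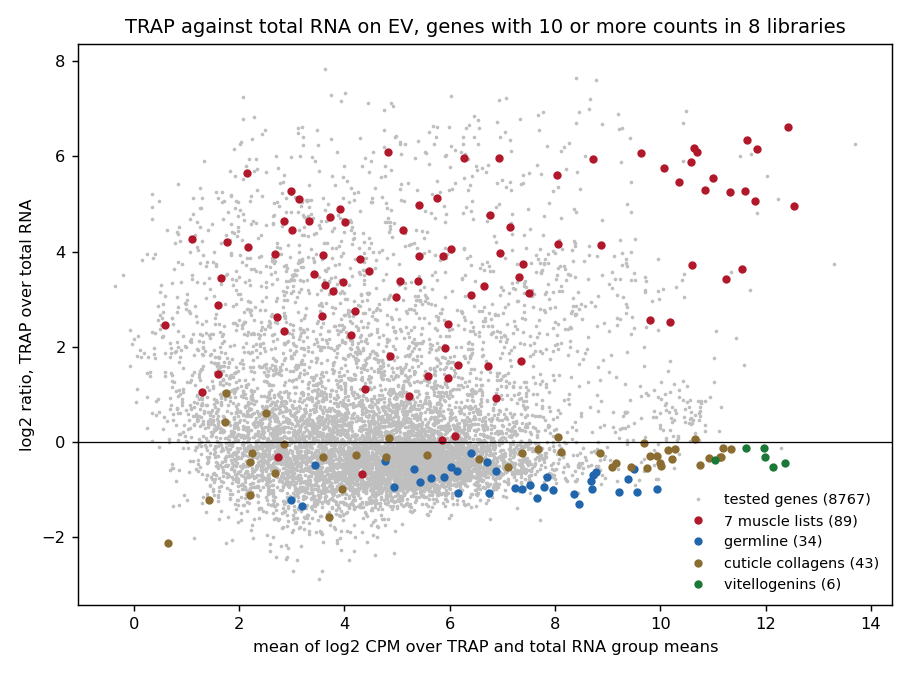
Log2 ratio of TRAP over total RNA (vertical axis) against the mean of the log2 CPM of both fractions (horizontal axis) for the 8767 tested genes (grey points), with 89 genes of 7 muscle lists in red, 34 germline genes in blue, 43 cuticle collagens in brown and 6 vitellogenins in green. Of the muscle genes, 83 were called higher; the collagens reached a ratio of 1.03, and the germline genes and vitellogenins lay below 0.

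The labelled tissue was first set beside the genes that define body wall muscle. Their lists were chosen with earlier results of these data known, so that this is a description and not an independent check. As a whole, 7 lists of muscle genes (filaments, attachment, excitation, junction, dystrophin complex and transcription factors) held 93 genes, of which 89 were tested, 83 were called higher and 1 was called lower, with a median ratio of 3.90 beside -0.10 for all tested genes. In 83 of the 89 the 4 TRAP libraries lay above all 4 total RNA libraries, as they did in 28.6% of all tested genes. Calls over all tested genes were 30.1% higher and 26.8% lower. These 93 genes took 20.4, 19.8, 19.3 and 20.7% of the counts in the 4 TRAP libraries and 1.69, 1.70, 1.64 and 1.61% in the 4 total RNA libraries. The mean share was thus 12.09 times as high in TRAP (exact two-sided permutation test, p = 0.0286, the smallest that 4 against 4 allows, with the same value after adjustment over 56 list shares). Every one of the 56 list shares reached this same p, also the small heat shock proteins with a share ratio of 0.814. The test therefore does not set the muscle lists apart from other lists, and only the size of the ratio does.

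The thin filament was the list with the highest median ratio, 5.27, and all 19 of its genes were called higher. Troponin C of the body wall, pat-10, the calcium sensor of the thin filament, was at 59307, 57283, 46474 and 54671 CPM in TRAP and at 593, 563, 516 and 548 CPM in total RNA, a ratio of 6.62 ± 0.12 (adjusted p = 2.07e-13, edgeR). No TRAP library came near any total RNA library. The other troponin genes of the body wall followed it, with ratios of 6.16 ± 0.13, 5.97 ± 0.15 and 5.95 ± 0.13 for the troponin I genes unc-27, tni-1 and tni-3, and 5.88 ± 0.12 and 5.29 ± 0.12 for the troponin T genes mup-2 and tnt-2. The troponin T gene tnt-3 was lower than these, at 1.63 ± 0.10, and was not called with library size scaling (0.13). Tropomyosin, lev-11, which lies along the actin filament and is its regulatory strand, had a ratio of 5.06 ± 0.10, and the calponin-like filament bundlers unc-87 and cpn-3 were at 6.09 ± 0.15 and 6.17 ± 0.14. Among factors that handle actin, ratios were 1.60 ± 0.10 for tropomodulin, unc-94 (0.098 and not called with library size scaling), 3.91 ± 0.15 for unc-78, which promotes filament turnover, and 2.53 ± 0.08 for the cofilin gene unc-60. The Z-disc relatives atn-1, the alpha-actinin, and alp-1 were at 4.17 ± 0.09 and 5.60 ± 0.13.

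In the thick filament all 13 genes were called higher, with a median of 3.72. The main body wall myosin heavy chain, unc-54, was at 11274, 11085, 9572 and 10317 CPM in TRAP and 855, 923, 829.7 and 797 CPM in total RNA, a ratio of 3.63 ± 0.09 (edgeR adjusted p = 1.07e-12). Its partner heavy chain at the filament centre, myo-3, had 594, 758, 543 and 548 CPM in TRAP against 45.9, 49.2, 48.0 and 40.3 CPM in total RNA, and paramyosin, unc-15, the filament core, had a ratio of 3.72 ± 0.09. The myosin light chains stood well above the heavy chains they bind, with 5.47 ± 0.10 for mlc-1, 6.35 ± 0.13 for mlc-2 and 5.55 ± 0.11 for mlc-3. The giant proteins of the sarcomere lay below the list median, as unc-54 also did. Ratios of the giant proteins were 3.13 ± 0.12 for the obscurin relative unc-89, 2.48 ± 0.14 for the titin relative ttn-1 and 1.35 ± 0.19 for twitchin, unc-22. Twitchin was at 92.9, 62.0, 125 and 119.4 CPM in TRAP, the lowest of these in replicate 2, and at 39.9, 38.3, 42.2 and 36.6 CPM in total RNA, and its direction turned with library size scaling. The myosin chaperone unc-45, the lowest of the list at 0.97 ± 0.15, also turned with that scaling. Exon lengths were 23368 bases for unc-22 and 641 for mlc-2, and how ratios run with length over all genes is given further on.

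Of the 14 genes of the dense body and its attachment, 13 were called higher, with a median of 3.72. The integrin chains pat-2 and pat-3, which span the membrane, had ratios of 3.38 ± 0.20 and 1.70 ± 0.10, and pat-3 was not called with library size scaling (0.20). The proteins that link integrin to actin had larger ratios than pat-3: 4.78 ± 0.13 for the parvin pat-6, 4.52 ± 0.11 for the PINCH protein unc-97, 4.06 ± 0.16 for integrin-linked kinase, pat-4, 3.97 ± 0.12 for vinculin, deb-1, and 3.47 ± 0.13 for talin, tln-1. The genes unc-95 and dim-1, which hold filaments in place at these sites, reached 5.96 ± 0.14 and 5.76 ± 0.11. The exception was lim-8, at 6.01 CPM in TRAP and 7.41 CPM in total RNA and not called (adjusted p = 0.475, edgeR).

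Messages for calcium handling and excitability were called higher in 16 of 18 cases, with a median of 2.90. Calsequestrin, csq-1, which buffers calcium in the sarcoplasmic reticulum, was at 6496 ± 872 CPM in TRAP and 96.2 ± 8.82 CPM in total RNA (SD, n = 4), a ratio of 6.08 ± 0.13. The pump that fills that store, sca-1, the ryanodine receptor unc-68 that empties it and the junctophilin jph-1 that holds it to the membrane had ratios of 2.56 ± 0.11, 1.98 ± 0.15 and 3.04 ± 0.16. The L-type calcium channel egl-19, which carries the muscle action potential, was at 37.5, 33.8, 25.7 and 21.8 CPM in TRAP and 4.86, 4.79, 5.18 and 4.15 CPM in total RNA, a ratio of 2.65 ± 0.24. Among the potassium channels called higher, ratios ran from 5.13 ± 0.13 for twk-18 and 4.46 ± 0.31 for sup-9 to 2.62 ± 0.43 for the calcium-activated channel slo-1 and 2.33 ± 0.29 for unc-103, while egl-36 was not called (adjusted p = 0.103, edgeR). The subunits sup-10 and unc-93, which act with sup-9, were at 5.28 ± 0.41 and 3.45 ± 0.39. The inositol trisphosphate receptor itr-1, known for its roles in the gut, the pharynx and the gonad, was the member called lower, at -0.67 ± 0.23 (edgeR adjusted p = 0.023). Its call was lost without TRAP replicate 4 or without total RNA replicate 1, 3 or 4 (adjusted p = 0.0503 to 0.0665, edgeR).

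On the muscle side of the neuromuscular junction, 11 of 13 tested genes of 15 were called higher, with a median of 4.11. The levamisole receptor of the worm is built from the subunits unc-29, unc-38, unc-63, lev-1 and lev-8, and 4 of them were tested, with ratios of 4.11 ± 0.33, 3.95 ± 0.44, 4.89 ± 0.20 and 2.89 ± 0.45 in the order unc-29, unc-38, lev-1 and lev-8. The fifth, unc-63, had counts of 0, 0, 56 and 0 in TRAP against 16 to 54 in total RNA and was not tested. The gene acr-16, the nicotine-sensitive receptor, was at 4.64 ± 0.26, and the GABA receptor unc-49, which relaxes the muscle, at 2.25 ± 0.19. Their auxiliary proteins molo-1, lev-9 and lev-10, which gate or cluster the receptors, had 5.65 ± 0.45, 4.26 ± 0.38 and 3.90 ± 0.14, and the receptor chaperone ric-3 had 4.73 ± 0.17. The receptor tyrosine kinase cam-1 and the trafficking factor unc-50, both used outside muscle as well, were not called (adjusted p = 0.386 and 0.838, edgeR). Levels here were low, with 8.27 ± 2.23 CPM in TRAP and 1.12 ± 0.494 CPM in total RNA for lev-8.

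In the dystrophin complex, which ties the cytoskeleton to the matrix, 9 of 10 tested genes of 11 were called higher. The sarcoglycans sgcb-1, sgn-1 and sgca-1 had 6.09 ± 0.21, 5.10 ± 0.25 and 4.63 ± 0.17, and the syntrophins stn-2 and stn-1 had 4.65 ± 0.32 and 3.29 ± 0.28. Dystrophin itself, dys-1, had 1.39 ± 0.12, and dystrobrevin, dyb-1, had 1.11 ± 0.18, and the direction of these last 2 turned with library size scaling. Of the 3 muscle transcription factors, hlh-1, the MyoD relative, was at 61.9, 32.4, 44.1 and 51.4 CPM in TRAP and 3.26, 3.55, 2.84 and 2.80 CPM in total RNA. The SRF relative unc-120 was at 74.6 ± 17.3 CPM and 5.17 ± 0.96 CPM. The 2 ratios, 3.93 ± 0.24 and 3.85 ± 0.22, were alike within their errors. The third, the HAND relative hnd-1, was at 0 in 2 TRAP libraries.

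**Figure D2:**
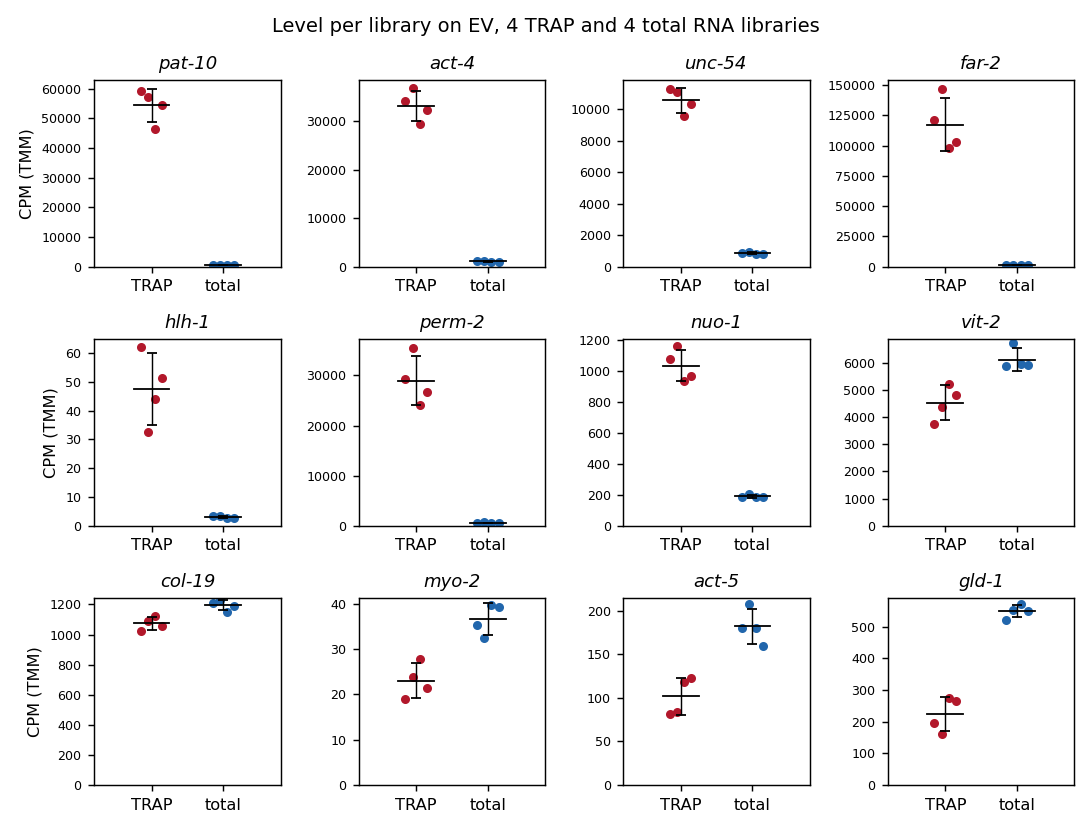
Level in each of the 4 TRAP (red) and 4 total RNA (blue) libraries, in CPM after TMM scaling on a linear axis from 0, for 12 genes; the line is the mean and the bar the SD. In the first 7 panels every TRAP library is above every total RNA library, and in the last 5 it is below, by much smaller steps.

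Basement membrane genes were called higher in 10 of 13 cases, beside 30.1% of all tested genes, with a median of 2.44. The SPARC gene ost-1, a collagen-binding matrix protein, was at 5.90 ± 0.11, and the collagen IV chains emb-9 and let-2, the fabric of the sheet, were at 3.92 ± 0.11 and 3.41 ± 0.08. Among the laminin genes, epi-1, lam-1 and lam-2 had ratios of 2.62 ± 0.10, 2.32 ± 0.10 and 2.44 ± 0.11. The laminin gene lam-3 had -0.71 ± 0.45 and was not called (adjusted p = 0.196, edgeR). With the replicate number as a block lam-3 was called lower at -1.03 (adjusted p = 0.0488, edgeR). Nidogen, nid-1, and the peroxidasin pxn-2 were not called either. Perlecan, unc-52, made by the epidermis and other tissues, was called at 0.93 ± 0.10 and turned with library size scaling.

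Pharyngeal muscle did not share this pattern. Of 8 listed genes, 7 were tested, 3 were called lower and 1 was called higher, with a median of -0.56. Over all tested genes 26.8% were called lower and 30.1% higher. The pharyngeal myosin myo-2 was at 18.9, 23.8, 27.9 and 21.3 CPM in TRAP and 35.3, 32.4, 39.8 and 39.4 CPM in total RNA, without overlap, a ratio of -0.68 ± 0.17 (edgeR adjusted p = 0.00452). The second pharyngeal heavy chain, myo-1, and the pharyngeal troponin C, tnc-2, were at -0.56 ± 0.21 and -1.63 ± 0.48. The call of myo-1 was lost without TRAP replicate 3 or 4, without any total RNA replicate and in DESeq2, with ratios of -0.326 to -0.604 (adjusted p = 0.055 to 0.15). The troponin I gene tni-4 was the exception, called higher at 0.78 ± 0.19 with TMM and lower with library size scaling.

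Families with a member for each tissue showed the same division. The actin genes act-1, act-2, act-3 and act-4 had ratios of 5.26 ± 0.11, 3.42 ± 0.11, 5.27 ± 0.11 and 4.96 ± 0.10, whereas act-5, the actin of the intestinal brush border, was at 81.8, 84.2, 118 and 122.3 CPM in TRAP and 179.6, 208, 180.5 and 159 CPM in total RNA, a ratio of -0.84 ± 0.14 (edgeR adjusted p = 0.000254). The genes act-1 and act-3 are nearly identical in sequence, so that their counts may be shared between them. The 2 aldolases, which split fructose bisphosphate in glycolysis, differed by more: aldo-1 was at 4566, 5581, 4069 and 4451 CPM in TRAP against 82.2, 85.0, 77.99 and 72.7 CPM in total RNA, and aldo-2 at 414, 357, 466 and 396 CPM against 539.9, 551, 518 and 515 CPM. The first was called higher at 5.88 ± 0.12 and the second lower at -0.38 ± 0.09. Hexokinases, which commit glucose to the pathway, gave 2.30 ± 0.14 for hxk-2 and -0.68 ± 0.10 for hxk-1. Of the glyceraldehyde phosphate dehydrogenases, the paired genes gpd-2 and gpd-3 had 3.97 ± 0.11 and 3.73 ± 0.13, and gpd-1 and gpd-4 had -0.18 ± 0.11 and -0.20 ± 0.12 and were not called; within each pair the sequences are near copies. Arginine kinases, which buffer ATP as creatine kinase does in vertebrates, divided likewise into F46H5.3 at 4.81 ± 0.11 and W10C8.5 at 4.09 ± 0.13 against ZC434.8 at -0.31 ± 0.12. The call of ZC434.8 was lost without TRAP replicate 1 or 4, without any total RNA replicate and in DESeq2 (adjusted p = 0.054 to 0.136).

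**Figure D3:**
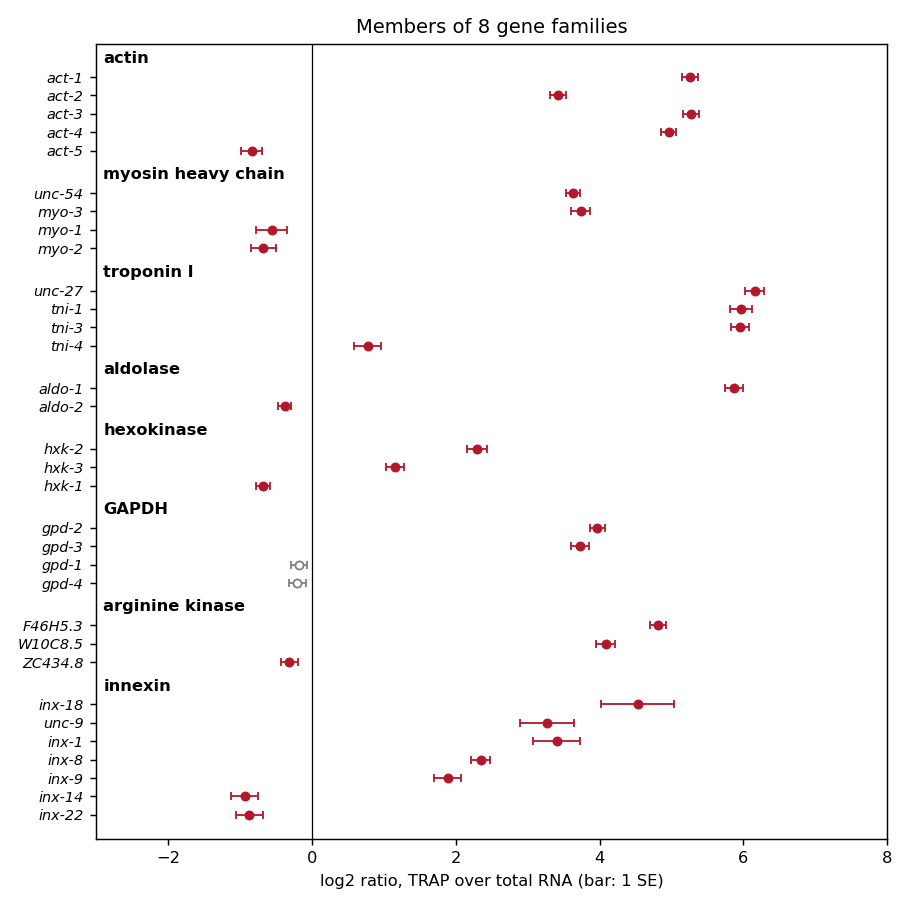
Log2 ratio of TRAP over total RNA with 1 standard error for members of 8 gene families; filled red points are called at an adjusted p under 0.05 in edgeR and open grey points are not. Members of one family lie far apart, as with aldo-1 at 5.88 and aldo-2 at -0.38.

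The innexins, which form the gap junctions of invertebrates, were called higher in 6 and lower in 6 of 17 tested genes of 25. These counts are near the 30.1% called higher and 26.8% called lower over all tested genes. The genes inx-18, inx-1 and unc-9, the last of which couples body wall muscle cells, had ratios of 4.53 ± 0.51, 3.40 ± 0.33 and 3.27 ± 0.37. The genes inx-8 and inx-9, which the gonadal sheath uses, were at 2.35 ± 0.13 and 1.89 ± 0.19 (for inx-9, 0.38 and not called with library size scaling), and their partners on the germ cell side, inx-14 and inx-22, at -0.93 ± 0.18 and -0.87 ± 0.18. Among splicing regulators, sup-12, a muscle splicing factor, was at 156, 179.5, 161 and 156 CPM in TRAP and 8.54, 8.83, 9.97 and 9.36 CPM in total RNA, a ratio of 4.15 ± 0.12. The gene exc-7, an ELAV relative, was called higher at 1.71 ± 0.29 with TMM and not with library size scaling (0.20), and the broadly used factors rsp-3 and hrpf-1 were called lower at -0.38 ± 0.10 and -0.65 ± 0.17.

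Messages for respiration were higher in most cases, where 30.1% of all tested genes were called higher and 26.8% lower. In complex I of the respiratory chain, 32 of 33 nuclear genes were called higher, with a median of 3.28. The gene nuo-1, which carries the site that oxidizes NADH, was at 1078, 1157, 936 and 964 CPM in TRAP and 184, 206, 188 and 186 CPM in total RNA, a ratio of 2.44 ± 0.09. The exception was nduf-2.2, at -0.10 ± 0.11 (edgeR adjusted p = 0.474). In cytochrome c oxidase, 11 of 14 genes were called higher. The structural subunits cox-4, cox-5A, cox-5B, cox-6A, cox-6B, cox-6C and cox-7C lay between 3.23 and 4.24, whereas the assembly factors cox-10, cox-11 and cox-15 were at -0.49 ± 0.33, -0.20 ± 0.23 and -0.05 ± 0.22 and were not called. In ATP synthase, 8 of 10 were called higher and 1 lower, and again members differed: asb-2 and asg-2 were at 3.84 ± 0.11 and 4.66 ± 0.12, and asb-1, whose known role is in the germline, at -0.36 ± 0.10 (edgeR adjusted p = 0.0109), a call lost without TRAP replicate 3 or 4 (adjusted p = 0.0619 and 0.0703, edgeR). Messages encoded in the mitochondrial genome itself, which mitochondrial and not cytosolic ribosomes translate, gave 7 called lower and 1 higher of 11 tested, with a median of -0.42.

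In the TCA cycle, 16 of 19 genes were called higher and 1 lower, beside 30.1% and 26.8% of all tested genes, with a median of 2.37. The genes sucl-1, mdh-1 and mdh-2 led, at 3.65 ± 0.11, 3.21 ± 0.10 and 3.18 ± 0.10, and citrate synthase, cts-1, at the entry of the cycle, was at 1.37 ± 0.08 and turned with library size scaling. The gene icl-1, the enzyme of the glyoxylate shunt, was at 2.37 ± 0.10, and idhg-1, a subunit of isocitrate dehydrogenase, was the member called lower, at -0.77 ± 0.15. In glycolysis, 14 of 18 tested genes were called higher and 2 lower. Besides aldolase, phosphofructokinase, pfk-1.1, was at 3.96 ± 0.11, enolase, enol-1, at 3.41 ± 0.11 and lactate dehydrogenase, ldh-1, at 4.05 ± 0.13.

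**Figure D4:**
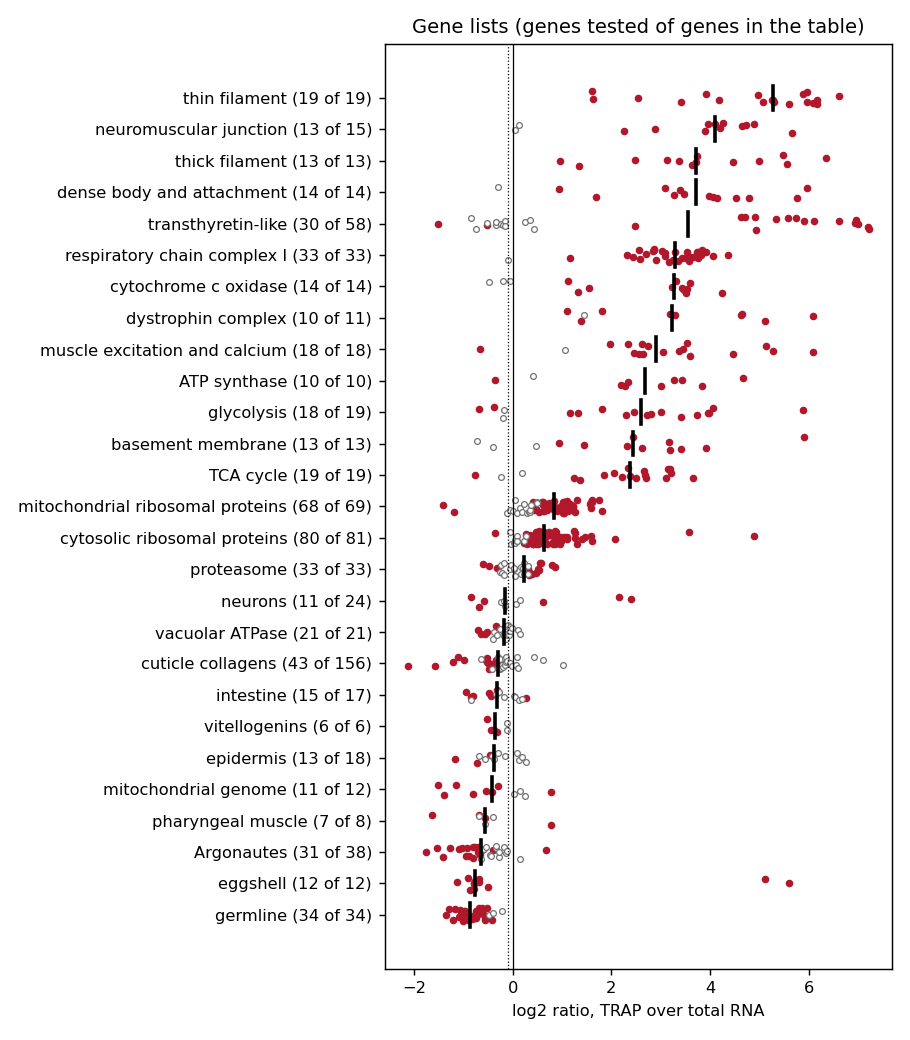
Log2 ratio of TRAP over total RNA for the tested members of 27 gene lists, ordered by the list median (black bar); red points are called at an adjusted p under 0.05 in edgeR, open points are not, the dotted line is the median of all tested genes (-0.10), and the numbers give genes tested of genes in the table. The thin filament lies highest with a median of 5.27, cytosolic ribosomal proteins have a median of 0.63, and germline genes one of -0.86.

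The protein synthesis machinery moved less. Calls over all tested genes were 30.1% higher and 26.8% lower. Of 80 tested cytosolic ribosomal protein genes, 69 were called higher and 1 lower, with a median of 0.63, yet their share of the counts was 7.48 ± 0.24% in TRAP and 12.8 ± 0.37% in total RNA (SD, n = 4). Their call thus rests on the TMM scaling, and their share of the library fell. The gene rpl-22 stood apart from them, at 9243, 10039, 7556 and 8847 CPM in TRAP and 800.4, 792, 688 and 713 CPM in total RNA, a ratio of 3.58 ± 0.11 (edgeR adjusted p = 3.85e-12). Of the other 79, rpl-41.1, a gene for a very short protein with a near copy in rpl-41.2, was above it at 4.89 ± 0.15, and rpl-25.1, at 2.08 ± 0.09, came next below. The strain carries a tagged ribosomal protein that the sources used here do not name. Counts per gene do not separate a tagged copy from the worm's own gene. Whether a tagged copy adds to the counts of rpl-22 or of any other member was not tested. The gene rpl-11.1 was the member called lower, at -0.35 ± 0.09, beside its paralog rpl-11.2 at 1.47 ± 0.11, and the sign of rpl-11.2 turned with library size scaling. Among factors that bind the message cap, ife-2 and ife-4 were at 1.97 ± 0.12 and 2.16 ± 0.24, and ife-3, a factor with known roles in the germline, at -0.87 ± 0.13. The large-subunit rRNA gene rrn-3.1 had the widest spread in TRAP relative to its mean among the 20 most counted genes, at 53042, 49547, 23665 and 20975 CPM, with 3064, 2409, 2944 and 2653 CPM in total RNA.

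Nearly all germline messages listed were lower. Of 34 listed genes, all were tested, 31 were called lower and none higher, with a median of -0.86, beside a background of 26.8% called lower. The translational repressor gld-1 was at 197, 162, 274 and 267 CPM in TRAP and 523, 554, 570.4 and 551 CPM in total RNA, a ratio of -1.29 ± 0.15 (edgeR adjusted p = 4.85e-06). The P granule helicase glh-1, the oocyte yolk receptor rme-2 and the RNA helicase cgh-1 had ratios of -0.61 ± 0.11, -0.82 ± 0.09 and -1.04 ± 0.10. The list's share of counts was 0.37 ± 0.08% in TRAP and 1.93 ± 0.04% in total RNA. Germline messages were thus at 0.194 of their share in total RNA and remained measurable in every TRAP library. Part of that fall was common to the bulk of genes, whose median log2 ratio by library size alone was -1.59. Among Argonautes, the effectors of small RNAs, 17 of 31 tested genes were called lower and 1 higher, with the germline members wago-1, hrde-1 and csr-1 at -0.70 ± 0.12, -0.81 ± 0.10 and -0.61 ± 0.10, and the microRNA Argonautes alg-1 and alg-2 at -0.14 ± 0.18 and -0.17 ± 0.11, not called (adjusted p = 0.53 and 0.201, edgeR).

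Eggshell genes parted from the germline in 2 members. Of 12, 10 were called lower, beside 26.8% of all tested genes. The ratios of these 10 lay between -0.50 ± 0.16 for egg-3 and -1.13 ± 0.11 for the chitin synthase chs-1. The call of egg-3 was lost without TRAP replicate 2 or 4 (adjusted p = 0.0578 and 0.0586, edgeR). The genes perm-2 and perm-4, which the permeability barrier of the egg needs, were at 29306, 35535, 24154 and 26670 CPM and 29474, 35736, 23576 and 23912 CPM in TRAP. In total RNA they had 598, 669, 564 and 554 CPM and 839, 930.0, 777 and 732 CPM, so that the ratios were 5.60 ± 0.14 and 5.10 ± 0.16. They took 1.70 and 1.66% of TRAP counts. Without them the eggshell genes lay below the bulk of genes like the germline. Filamin, fln-1, known for its role in the contractile spermatheca and sheath, was at 3.09 ± 0.08, beside the sheath innexins above.

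Median ratios were -0.33 for intestinal genes, -0.38 for epidermal genes and -0.30 for cuticle collagens, beside -0.10 for all tested genes. Vitellogenins, yolk proteins that the intestine secretes, were called lower in 4 of 6 cases, and vit-2 was at 3723, 4371, 5209 and 4820 CPM in TRAP and 5864, 6720, 5940 and 5898 CPM in total RNA, a ratio of -0.43 ± 0.10. Of 17 intestinal genes, 15 were tested, 6 were called lower and 1 was called higher. The intestinal GATA factor elt-2 was at 0.18 ± 0.60 and was not called (adjusted p = 0.812, edgeR). Of 156 cuticle collagens, 43 were tested and 21 called lower, and 92 had counts in total RNA and 0 in at least 1 TRAP library. Among 18 epidermal genes, 13 were tested, 3 were called lower and 10 were not called, beside 26.8% of all tested genes called lower, with the attachment protein let-805 at -1.16 ± 0.18. In shares of counts these lists were alike: vitellogenins fell from 4.36 ± 0.25% to 1.24 ± 0.26%, collagens from 5.13 ± 0.20% to 1.51 ± 0.21%, and epidermal genes from 0.27 ± 0.002% to 0.086 ± 0.011% (SD, n = 4), which is 0.284, 0.294 and 0.316 of the total RNA share. Mitochondrial genome messages were at 0.284 by the same measure. In each of these lists TRAP replicates 3 and 4 had the higher shares. Most of the fall in share was common to the bulk of genes. Aminoacyl-tRNA synthetases and translation factors, with median ratios of -0.10 and -0.13, were at 0.320 and 0.352 of their total RNA share.

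Neuronal genes were mostly too low to test. Of 24, 11 were tested and 13 had 0 counts in at least 1 TRAP library. Of the 11, 3 were called higher, 3 were called lower and 5 were not called, with a median of -0.17. Over all tested genes 30.1% were called higher and 26.8% lower. The syntaxin unc-64 and the priming factor unc-13, parts of the release machinery, were called higher at 2.40 ± 0.21 and 2.15 ± 0.31, and the neuropeptide processing enzymes egl-3 and egl-21 were called lower at -0.59 ± 0.19 and -0.84 ± 0.21. The call of egl-3 was lost without TRAP replicate 3 or 4 or total RNA replicate 2 or 3 (adjusted p = 0.0573 to 0.0603, edgeR). The gene unc-13 was at 39.2, 51.6, 17.9 and 22.9 CPM in TRAP and 6.67, 8.496, 7.81 and 6.57 CPM in total RNA, and it was not called with library size scaling (0.61).

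Families of small proteins stood among the highest ratios. They were chosen after these ratios had been seen, so that their counts are a description. These counts cover only members that met the count minimum in every library. Calls over all tested genes were 30.1% higher and 26.8% lower. Fatty acid binding proteins, the far and lbp genes, had 8 called higher and 1 lower of 13 tested, and took 9.36 ± 0.78% of TRAP counts against 0.45 ± 0.03% of total RNA counts. The gene far-2, a secreted lipid carrier, had more counts in TRAP than any other gene, at 120960, 147200, 98371 and 103310 CPM, with 1596, 1679, 1403 and 1413 CPM in total RNA, a ratio of 6.27 ± 0.16 (edgeR adjusted p = 9.31e-13). The genes far-1 and lbp-2 were at 6.002 ± 0.13 and 6.71 ± 0.19, whereas lbp-6 and far-8 were at 0.02 ± 0.14 and -0.63 ± 0.18. Transthyretin-like genes fell into 2 sets. Of 30 tested, 16 were called higher with ratios of 2.48 or more, from ttr-46 at 2.48 ± 0.13 to ttr-25 at 7.23 ± 0.20, and 2 were called lower, ttr-50 and ttr-44 at -0.52 ± 0.15 and -1.52 ± 0.30. The most counted of them, ttr-16, was at 16572, 20426, 13139 and 14013 CPM in TRAP and 133, 148, 118 and 121 CPM in total RNA. Small immunoglobulin domain genes gave 8 of 11 called higher, among them oig-2 at 7.18 ± 0.21 and zig-12 at 6.60 ± 0.12. Near the top of the list were also heh-1 at 6.88 ± 0.17, spp-15, a saposin-like gene, at 7.06 ± 0.24, and the insulin-like gene ins-27 at 7.17 ± 0.26. Small heat shock proteins joined them in part, with hsp-12.1 at 6.59 ± 0.36 and hsp-25 at 4.84 ± 0.11, while sip-1, the small chaperone of oocytes and embryos, was called lower at -0.59 ± 0.07.

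At the other end, the 25 lowest ratios among called genes of at least 10 CPM on average lay between -2.88 and -1.90. Examples picked from them after their values were seen are lem-2, of the inner nuclear membrane, at -2.70 ± 0.34, the exportin xpo-1 at -2.37 ± 0.31, the mRNA export factor nxf-1 at -1.99 ± 0.43, and nhl-2, a cofactor of small RNA pathways, at -2.10 ± 0.17. The gene xpo-1 was at 7.403, 4.94, 12.5 and 17.3 CPM in TRAP and 51.5, 60.5, 57.3 and 49.7 CPM in total RNA. The bottom gene, swsn-3, a SWI/SNF subunit, was at 2.28, 1.98, 3.74 and 8.80 CPM in TRAP and 32.4, 30.5, 33.9 and 27.9 CPM in total RNA. Standard errors of these 25 ratios ran from 0.13 to 0.53.

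Genes with no count in some TRAP library fell below the count minimum and have no ratio. In all, 10322 genes with counts in total RNA had 0 in at least 1 TRAP library: 1384 in 1 library, 1422 in 2, 2212 in 3 and 5304 in all 4. Of the 10322, 4345 had 10 or more counts in each total RNA library. Of these, 1289 were at 0 in exactly 1 TRAP library, and for 653 that library was replicate 2, which had 36257 genes at 0 against 35106 to 35285 in the other 3. Total RNA libraries had 29432 to 30441 genes at 0. Genes with 1 to 20 counts numbered 205 to 535 in TRAP and 2846 to 3423 in total RNA, so that in TRAP few genes lay between 0 and 20 counts. Within these counts from 1 to 20, 78.1 to 87.1% were even numbers, so that intervals drawn from counts would be too narrow and none is given.

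The gene lin-35, the retinoblastoma relative, came first by total RNA CPM among genes with a TRAP zero, with TRAP counts of 66, 0, 151 and 365 against 1912, 1758, 2688 and 2062. The list of 20 such genes also held gld-4, a poly(A) polymerase of the germline, at 46, 22, 154 and 0 against 1548, 1573, 2240 and 1430. In each of these 20 genes the zero lay in 1 TRAP library only, but mean TRAP levels were below those of total RNA as well. They were 5.18 against 30.2 CPM for lin-35 and 2.37 against 24.4 CPM for gld-4. Of the 746 genes at 0 in all 4 TRAP libraries with 10 or more counts in each total RNA library, whose examples were chosen after their values were seen, scpr-1 came first by total RNA CPM, with 343, 308, 356 and 366 counts in the total RNA libraries. The mitochondrial ribosomal protein gene mrps-31 and the Hox-cofactor relative ceh-60 were at 0 in all 4 as well, from 3.06 and 2.32 CPM in total RNA. In the other direction, R05D3.6 had TRAP counts of 2053, 0, 1074 and 1377 against 32, 27, 59 and 8 in total RNA, and nhr-87, a nuclear hormone receptor, had 646, 0, 182 and 454 against 84 to 151. Both were left out of the test by the zero in replicate 2.

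Ratios ran with the length of the message and with the chromosome. With the tested genes cut into 6 parts by exon length, the share called higher was 47.1% in the shortest part (51 to 766 bases) and 19.7% in the longest (2789 to 56044 bases), and the share called lower was 7.41% and 43.9%. The median ratio went from 0.50 to -0.41. On the X chromosome, which is largely silent in the germline, 43.2% of 1162 genes were called higher and 11.19% lower, with a median of 0.44, whereas on the autosomes 28.1% of 7551 were called higher and 29.2% lower, with a median of -0.15. The 5 autosomes lay close together, with medians from -0.19 on chromosome I to -0.06 on chromosome V. Without the listed muscle and respiration genes the medians were 0.39 and -0.17. In the shortest length part X and autosomes had similar shares called higher, 45.9 and 47.3%, and in the other 5 parts the X chromosome had the larger share. Calls ran with level as well. In 6 parts by mean level, the share called lower was 5.81% in part 1, the lowest, 43.3% in part 5 and 30.0% in part 6. The share called higher was 25.9, 27.2 and 53.6% in the same parts. Length and chromosome were not compared within parts of level. These are counts over genes, which are not independent replicates, and no test was made of them.

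**Figure D5:**
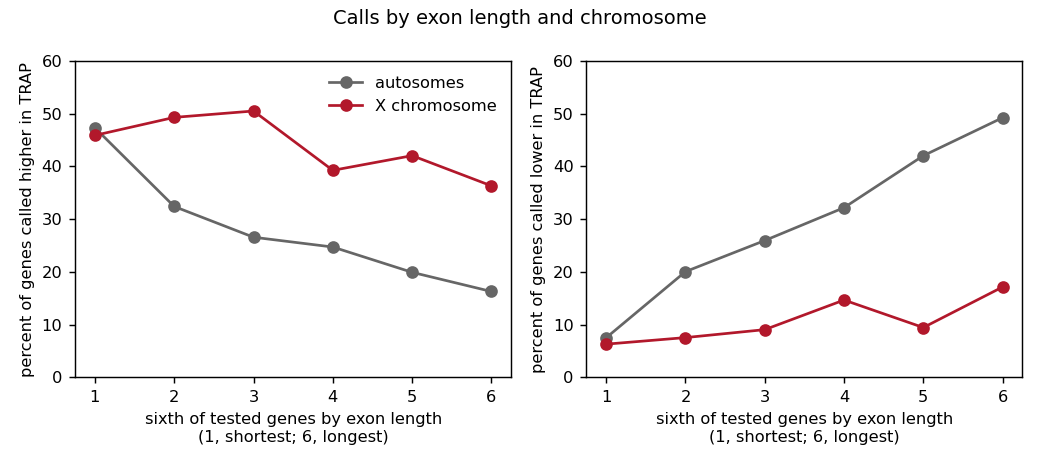
Percent of tested genes called higher (left) and lower (right) in TRAP at an adjusted p under 0.05 in edgeR, in 6 parts of the genes by exon length, for the X chromosome (red) and the autosomes (grey). From the shortest to the longest part, calls higher on the autosomes go from 47.3 to 16.3% and calls lower from 7.502 to 49.3%, and the X chromosome has at least 36.3% called higher and at most 17.1% called lower.

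The same ratios were then taken in libraries that this comparison did not use, those of worms fed dimt-1 RNAi, which knocks down an 18S rRNA methyltransferase. The count minimum had to be met in every EV library and in every dimt-1 RNAi library. With it, 8324 genes were tested there, of which 30.5% were called higher and 24.0% lower in TRAP. Of the 2642 genes called higher on EV, 2535 were tested there, 99.25% had a ratio of the same sign and 89.9% were called higher again. Of the 2346 called lower, 2294 were tested, 97.9% had the same sign and 68.3% were called lower again. With all 4 replicates, none was called in the opposite direction. Replicate 3 of the dimt-1 RNAi libraries was left out as an alternative chosen after the data had been seen, and the shares called again were then 92.4 and 74.85%, with 1 gene called in the opposite direction.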

How the data were processed

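The deposited table holds counts, whole numbers of reads per gene as the authors counted them, not normalized, for the 16 libraries of the muscle strain. The submitters' processing notes name STAR 2.7.2b; the counter and the counting settings for the muscle libraries are not given in the sources used here. Every count column belonged to a sample (0 columns with no sample). Genes with 10 or more counts in all 8 libraries were tested with edgeR 4.0.16 in R 4.3.3 (quasi-likelihood test, TMM scaling, 4 TRAP against 4 total RNA libraries, no covariate, Benjamini-Hochberg adjustment over 8767 genes). Genes with a 0 in a TRAP library were listed apart. On simulated counts for this comparison (8755 genes, 200 changed by 2 on the log2 scale) edgeR found 97% of the changed genes, with 3% false calls. In the real libraries 4988 of 8767 genes were called. The rate of false calls with so many genes changed was not tested. Shares of counts were compared by exact two-sided permutation tests. Libraries were compared pairwise and none was a copy: any 2 differed in at least 12410 genes. Levels are not scaled by gene length: where genes are ranked by CPM or by counts, to choose which are named, the order follows length as well.

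Named genes were members of the lists, the 25 highest and 25 lowest ratios among called genes of 10 CPM or more without overlap, the 20 most abundant genes of each fraction, and of genes with a TRAP zero the 20 highest in total RNA and the 10 highest in TRAP. Members and lists were chosen with earlier results of these data known. The 10 genes at 0 in all 4 TRAP libraries with the highest total RNA level, from which examples are named, were added after their values were seen. Chromosomes and exon lengths come from the WBcel235 annotation, which held 46151 of the 46748 IDs. Near-identical genes (act-1 and act-3, gpd-2 and gpd-3, rpl-41.1 and rpl-41.2) may share reads. Alternatives were DESeq2 1.42.0 and its size factors, limma 3.58.1 voom with library quality weights, library size scaling, other count filters, a replicate block, counts divided by 2 and leaving out each library.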

Additional observations from a re-analysis of the deposited data

Results flagged for a closer look

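Each value of a library was set against the other 3 of its group, and 7 of 232 such values lay farther from the others than Dixon's 95% critical value for 4 samples allows; chance flags about 1 in 20 groups. TRAP replicate 2 had 36257 genes at 0, beside 35106 to 35285 in the other TRAP libraries. The same library had the highest median level of the hedgehog- and patched-related genes, at a log2 CPM of 4.30 beside 4.00 to 4.01. In total RNA replicate 2, the median log2 CPM of the vitellogenins was 12.24 beside 12.02 to 12.05, and that of the neuronal genes was 3.57 beside 3.87 to 3.93. In total RNA replicate 4, the median log2 CPM of the epidermal genes was 4.61 beside 4.77 to 4.80, and the eggshell genes took 1.026% of the counts beside 1.058 to 1.061%. In total RNA replicate 1, the neuropeptide genes took 0.109% of the counts beside 0.103 to 0.104%.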

How the results depend on the processing

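Scaling by library size alone gave 1217 genes higher and 6574 lower, and testing every gene with a count gave 2365 higher and 3593 lower over 19423 genes; the other scalings, filters and tools gave 2422 to 2790 higher and 2119 to 3015 lower. Leaving out 1 library gave 2431 to 2899 higher and 1860 to 2268 lower, a muscle share of 19.8 to 20.3% in TRAP and 1.65 to 1.67% in total RNA. Leaving out replicate 2 in both fractions, an alternative chosen after seeing the data, gave 2600 higher and 2064 lower. By library size alone 13 ratios of genes named here changed sign, beside those of other tested genes: -0.12 for unc-22, -0.53 for unc-45, -0.11 for dys-1, -0.39 for dyb-1, -0.57 for unc-52, -0.74 for tni-4, -0.13 for cts-1 and -0.045 for rpl-11.2, and, among genes not called, -1.49 for lbp-6, -1.38 for elt-2, -1.0005 for pxn-2, -1.37 for cam-1 and -1.46 for unc-50. The genes pat-3, unc-94, tnt-3, rpl-41.2, exc-7, inx-9 and unc-13 were no longer called under it, at 0.094 to 0.608. That scaling subtracts about the same amount from every ratio. Over all settings, 163 list medians moved by more than the spread between replicates, 55 of them under library size, and 38 values of named genes moved to the other side of the threshold from called and 15 to called, and 3436 kept their side and direction. With the replicate number as a block, 2507 genes were higher and 2553 lower, and of the named genes lam-3 alone changed its call. Deviations of same-numbered libraries correlated at 0.01 to 0.05 and 1 of 4 libraries correlated best with its own number. Taking both fractions from 1 supernatant is described for the germline experiment and not separately for muscle, so whether a number marks a shared lysate here was not settled. With 4 libraries a group, the smallest exact p was 0.0286, and genes with under 10 counts in a TRAP library, 10423 in all, could not be placed by ratio.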

Other observations

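Several families of broad function held a few members far above the rest. Their counts of calls stand beside 30.1% of all tested genes called higher and 26.8% called lower. They cover only members that met the count minimum in every library. Among the glutathione S-transferases, which conjugate toxic compounds, 9 of 22 tested genes of 49 were called higher and 2 lower, with gsto-3, gst-3 and gst-4 at log2 ratios of 5.13 ± 0.23, 4.03 ± 0.48 and 3.42 ± 0.15. Enzymes that activate or oxidize fatty acids gave 11 of 23 called higher and 5 lower, and acs-16, acdh-9 and acs-2 were at 5.60 ± 0.33, 4.01 ± 0.13 and 3.05 ± 0.15, against -1.25 ± 0.30 for acs-22. Of 18 tested cathepsins and aspartyl proteases, the digestive and lysosomal proteases, 12 were called lower and 1 higher, asp-4 at 2.42 ± 0.13. The replication-independent histone H3 gene his-71 was at 3.37 ± 0.14, and his-37 at 3.87 ± 0.12, of 13 tested histone genes of 72. Other copies of his-37 in the genome are near-identical, and reads may be shared among them.

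Of 44 tested neuropeptide genes of 140, 8 were called higher and none lower in edgeR, among them flp-10 at 2.58 ± 0.24 and nlp-69 at 4.80 ± 0.38. Over all tested genes 30.1% were called higher, a larger share than of the neuropeptide genes, and 26.8% lower. Nuclear hormone receptors gave 27 called higher and 5 lower of 74 tested genes of 269, from 2.54 ± 0.24 for nhr-95 to -2.29 ± 0.27 for nhr-66. Of these 269 genes, 151 had counts in total RNA and 0 in at least 1 TRAP library, as had 87 of the 140 neuropeptide genes. The count minimum leaves out such genes, so that the counts of calls do not describe either family as a whole. Among autophagy genes, lgg-1, the ubiquitin-like protein of the autophagosome membrane, was at 1.84 ± 0.10 and the membrane protein gene atg-9 at -1.87 ± 0.29. In the HSP70 and HSP90 families 5 of 9 were called lower, and hsp-70, a heat-inducible member, was at 2.96 ± 0.42. In 147 genes there were counts in some TRAP library and none in any total RNA library.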
